A study of Homo sapiens with 4 samples.

Results

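The interferon regulatory factors are a family of transcription factors that share a tryptophan-rich DNA-binding domain and switch interferon genes and interferon-stimulated genes on or off. The 6 genes described here, IRF1, IRF2, IRF3, IRF5, IRF7 and IRF9, were chosen by gene symbol from 46427 gene rows, and each stood on 1 row. They were followed in H1944, a human lung cancer cell line, after BAY1217389, an inhibitor of the mitotic kinase MPS1 (also called TTK), or after its vehicle DMSO. Both groups were exposed for 48 h and harvested 24 h after the agent was washed out, with 2 libraries in each group, made with a stranded mRNA kit. The labels call the libraries biological replicates but do not say that they came from separate cultures, so p-values measure the spread between these libraries only, and the dose of the inhibitor is not given in the sources used here. The series was made to look for negative regulators of STING, the adaptor that reports DNA in the cytosol.

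IRF3 and IRF7 lie directly downstream of nucleic acid sensors. The kinases TBK1 and IKKε phosphorylate them, after which they enter the nucleus and start transcription of interferon genes. IRF3 is made constitutively in most cells, whereas IRF7 is itself an interferon-stimulated gene and amplifies the response. IRF9 is the DNA-binding subunit of ISGF3, the complex through which type I and type III interferon receptors act. IRF1 is induced by interferons and through NF-κB and drives antigen presentation genes, IRF2 binds the same sites and can oppose or support IRF1, and IRF5 acts mainly in myeloid cells and B cells.

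The BAY1217389 libraries held 43661342 and 43067647 reads assigned to genes, against 39332931 and 38904473 in the DMSO libraries. Expression is given as CPM, counts scaled to library size and composition (TMM). The 10 epithelial markers, led by the keratin genes KRT8 and KRT18, summed to 4977 and 5137 CPM after BAY1217389, against 4279 and 4285 CPM in DMSO, with KRT19 at 0. Of the 14 haematopoietic markers, 7 had 0 reads in all 4 libraries, among them PTPRC, CD3D, MS4A1, CSF1R, FCGR3A and NKG7. The myeloid markers CD14 and ITGAM were detected in every library. CD14 had 1.63 and 2.104 CPM after BAY1217389, against 1.473 and 1.559 CPM in DMSO. ITGAM had 1.906 and 2.548 CPM after BAY1217389, against 1.6 and 2.504 CPM in DMSO. CD79A had reads in every library, at most 0.2337 CPM, and CD3E, CD2 and LYZ in some libraries only. The 14 haematopoietic markers summed to 165.7 and 170.3 CPM after BAY1217389, against 72.67 and 76.48 CPM in DMSO, of which CD68, a lysosomal gene also expressed outside that lineage, made up 161.6 and 164.5 CPM against 69.45 and 72.08 CPM. The 7 fibroblast markers summed to 46.36 and 45.86 CPM after BAY1217389, against 33.39 and 29.69 CPM in DMSO, with COL1A2 and PDGFRA at 0 reads. Most of that sum came from 3 genes that were expressed and higher after BAY1217389. DCN had 20.82 and 21.34 CPM, against 16.05 and 14.28 CPM in DMSO. LUM had 19.15 and 17.41 CPM, against 13.20 and 10.76 CPM in DMSO. COL1A1 had 5.992 and 6.825 CPM, against 4.088 and 4.446 CPM in DMSO. The 6 endothelial markers summed to 2.181 and 2.15 CPM after BAY1217389, against 1.041 and 0.7921 CPM in DMSO. The part of these shifts in the results that follow was not tested.

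Promoter sequence was at hand for 3 of the 6 genes, in RefSeq windows on build GRCh38.p14. Stretches of these are shown because IRF1 and IRF9 changed and IRF5 did not pass the test. Capitals mark matches on either strand to TTCNNNGAA, the GAS element bound by STAT dimers, or to AANNGAAA, the core element bound by IRF proteins. Positions count back from the base next to the annotated start, and each stretch is printed 5′ to 3′ along the gene.
IRF1, 150 to 26 bases before the start, minus strand, chr5:132490799-132490923: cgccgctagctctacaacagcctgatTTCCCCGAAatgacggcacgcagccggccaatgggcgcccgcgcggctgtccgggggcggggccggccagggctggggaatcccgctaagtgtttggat
IRF9, 71 to 47 bases before the start, plus strand, chr14:24161194-24161218: cacgtgatTTCTGGGAAaaggccct
IRF9, 43 to 20 bases before the start, plus strand, chr14:24161222-24161245: tggaggagAACTGAAActtagggt
IRF5, 60 to 1 bases before 1 of its 4 annotated starts, plus strand, chr7:128940610-128940669: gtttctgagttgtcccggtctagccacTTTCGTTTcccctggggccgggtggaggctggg

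IRF1 held a GAS match 124 to 116 bases before its start and no IRF core. IRF9 held both kinds of match, the GAS element at 63 to 55 bases and the IRF core at 35 to 28 bases before its start. Of 4 IRF5 windows, 1 held an IRF core, 33 to 26 bases before that start, and none held a GAS match. The longer ISRE core, GAAA repeated with NN between, contains the letters of the IRF core and was in none of the 6 windows. Over 35116 RefSeq promoters, the same 150 bases held the GAS letters in 3.66%, the IRF core in 11.9% and the ISRE core in 1.74%. The motifs were chosen with these sequences in view. A match describes letters only, and binding at these places was not measured here. Annotated exons of IRF9 and of AL136295.5 overlap the IRF9 window, and IRF1 exons overlap the IRF1 window at its end next to the start, beyond the stretch printed.

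Of the 6 genes, 4 rose after BAY1217389, none fell and IRF3 and IRF5 did not pass the test. Among all 16738 genes tested, 27.8% were called, 14.5% higher and 13.3% lower, at an adjusted p under 0.05 in edgeR's quasi-likelihood test. By at least 1 on the log2 scale, 2 of the 6 rose, against 3.21% of all genes. The median log2 fold change of the family was 0.85, beside 0.0011 over all genes. In a bulk culture, a change in the share of cells expressing a gene and a change in RNA per cell cannot be told apart.

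**Figure D1:**
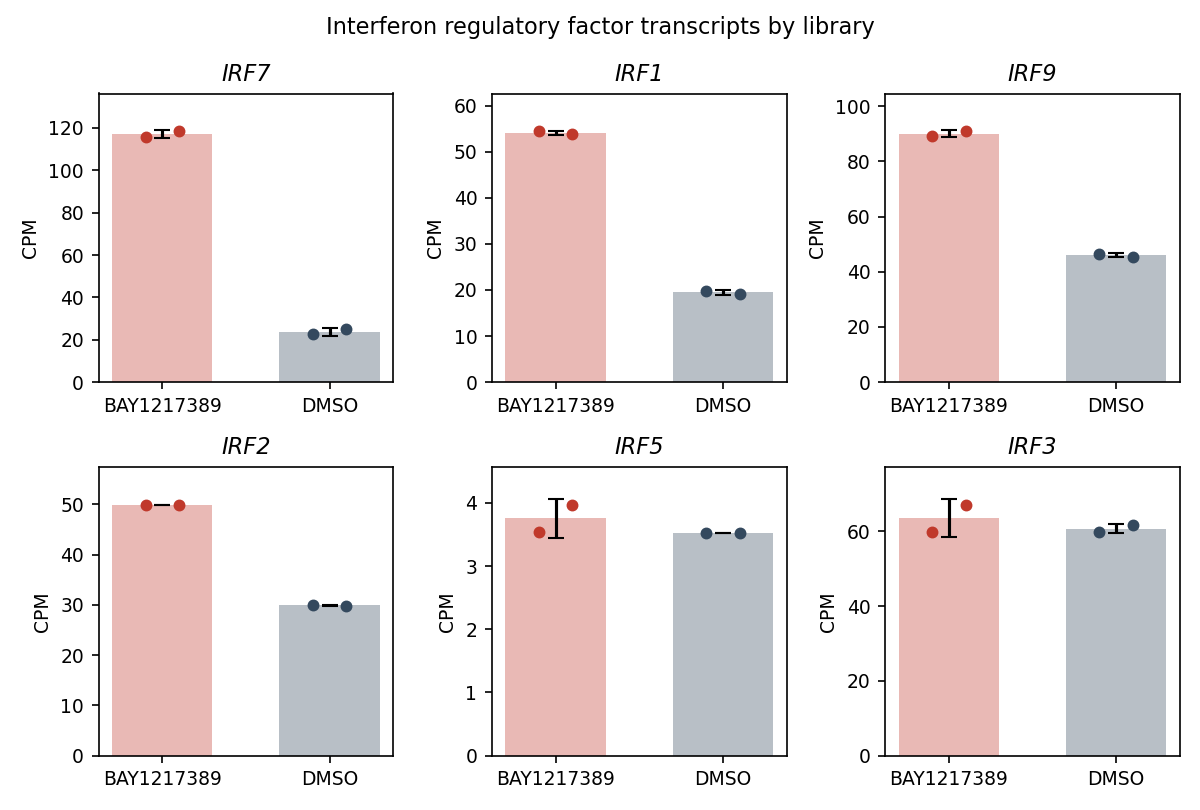
Levels of the 6 interferon regulatory factor transcripts in CPM, for BAY1217389 (red) and DMSO (grey), with a point for each library, the bar at the group mean and the error bar at 1 SD (n = 2). IRF7, IRF1, IRF9 and IRF2 stand clear of their DMSO libraries, with IRF7 at 116 and 118 CPM against 22.5 and 25.1 CPM, while the IRF3 groups overlap.

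IRF7, the interferon-inducible factor that amplifies interferon production, had the largest rise of the family. It had 5046 and 5069 reads in the BAY1217389 libraries, against 887 and 981 reads in the DMSO libraries. That is 116 and 118 CPM after BAY1217389, against 22.5 and 25.1 CPM in DMSO. The 2 groups did not overlap, and the lowest BAY1217389 library was 4.62 times the highest DMSO library. The mean was 117 ± 1.86 CPM after BAY1217389 and 23.8 ± 1.80 CPM in DMSO (SD, n = 2 each), so IRF7 rose by 2.30 on the log2 scale (SE 0.05, edgeR adjusted p = 1.01e-28). The fold was 4.92, with a 95% interval of 4.58 to 5.29. By size of rise IRF7 stood at place 207 among all genes tested.

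IRF1, which drives antigen presentation genes and is induced by interferons, had the next largest rise. It had 2371 and 2301 reads in the BAY1217389 libraries, against 779 and 749 reads in the DMSO libraries. These counts correspond to 54.4 and 53.8 CPM after BAY1217389, against 19.8 and 19.1 CPM in DMSO, with no overlap. On the log2 scale the change was 1.48 (SE 0.06, edgeR adjusted p = 1.88e-20), a fold of 2.78 with a 95% interval of 2.55 to 3.03. The antisense transcript IRF1-AS1 had 75 and 44 reads after BAY1217389, against 23 and 19 in DMSO. Its change came to 1.36 on the log2 scale (SE 0.37, edgeR adjusted p = 0.00467). In GENCODE 29, 1716 of the 7799 exonic bases of IRF1 are shared with C5orf56 and 469 with AC116366.3, both on the opposite strand. Whether counting used strand is not given in the sources used here. The reads of IRF1-AS1 were few beside those of IRF1, but reads within the shared bases were not counted apart.

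IRF9, the DNA-binding subunit of ISGF3, had 89.1 and 91.0 CPM in the BAY1217389 libraries, against 46.5 and 45.5 CPM in the DMSO libraries. Its reads were 3880 and 3892 after BAY1217389, against 1830 and 1780 in DMSO. Both BAY1217389 libraries lay above both DMSO libraries, by ratios between 1.92 and 2.00. On the log2 scale the change was 0.97 (SE 0.05, edgeR adjusted p = 1.01e-18), a fold of 1.96 with a 95% interval of 1.84 to 2.09. GENCODE 29 also places a gene named AL136295.5 on the same strand, which covers 1838 of the 3794 exonic bases of IRF9. The IRF9 transcript matched for length was also 1838 bases long. How reads in shared bases were assigned is not given in the sources used here. Reads of such a transcript could therefore stand in the IRF9 count.

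IRF2, which binds the sites that IRF1 binds, had 2172 and 2136 reads after BAY1217389, against 1182 and 1166 in DMSO. Its level was 49.9 CPM in both BAY1217389 libraries, against 30.0 and 29.8 CPM in the DMSO libraries. The groups did not overlap and the libraries of each group lay close together. The change came to 0.74 on the log2 scale (SE 0.06, edgeR adjusted p = 8.20e-13), a fold of 1.67 with a 95% interval of 1.54 to 1.81. Set against each other, reads of IRF1 over reads of IRF2 were 1.09 and 1.08 in the BAY1217389 libraries, against 0.659 and 0.642 in the DMSO libraries. IRF1 therefore rose more than IRF2, by 0.74 on the log2 scale with a 95% interval of 0.57 to 0.91.

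IRF3, the constitutive factor that TBK1 activates, had 59.9 and 67.1 CPM in the BAY1217389 libraries, against 59.8 and 61.6 CPM in the DMSO libraries. The groups overlapped, and BAY1217389 replicate 1 lay between the DMSO libraries. On the log2 scale the change was 0.07 (SE 0.05, edgeR adjusted p = 0.391), and its 95% interval of -0.04 to 0.17 holds folds between 0.973 and 1.12. Without BAY1217389 replicate 2 the sign turned, to -0.02. BCL2L12, which overlaps IRF3 on the opposite strand and shares 19.3% of its exonic bases, fell, with 20.5 and 21.9 CPM after BAY1217389 against 28.6 and 29.6 CPM in DMSO. Its change came to -0.46 on the log2 scale (SE 0.07, edgeR adjusted p = 4.57e-06).

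IRF5, a factor of myeloid and B cells, was the scarcest of the 6. It had 154 and 170 reads after BAY1217389, against 139 and 138 in DMSO. In CPM these were 3.54 and 3.97 after BAY1217389, against 3.53 and 3.53 in DMSO, so the groups just failed to overlap. Libraries that do not overlap were common, at 61% of all genes tested and, counting only those higher after BAY1217389, at 30.5%, and 5 of the 6 family members were of that higher kind. On the log2 scale the change of IRF5 was 0.09 (SE 0.18, edgeR adjusted p = 0.774), with a 95% interval of -0.28 to 0.46. At this depth changes within that interval were not excluded.

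**Figure D2:**
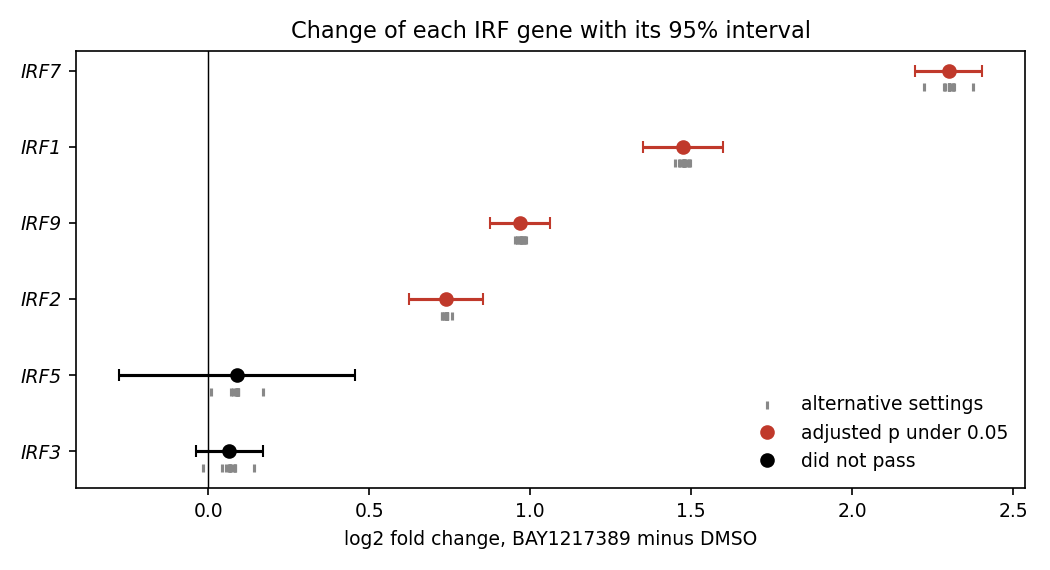
Log2 fold change of each IRF gene, BAY1217389 minus DMSO, with its 95% interval from the edgeR fit (circles, red where the adjusted p was under 0.05). The grey ticks beneath are the values under the alternative settings, and they lie close to the main value for the 4 genes that rose, from 2.22 to 2.38 for IRF7.

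The changes of the 4 risen genes differed from each other by more than their errors. In order of size they were IRF7, IRF1, IRF9 and IRF2. IRF7 exceeded IRF1 by 0.82 on the log2 scale, with a 95% interval of 0.66 to 0.99. IRF1 exceeded IRF9 by 0.51, with an interval of 0.35 to 0.66. IRF9 exceeded IRF2 by 0.23, the narrowest step among these 4, with an interval of 0.08 to 0.38. IRF2 exceeded IRF5 by 0.65, with an interval of 0.27 to 1.03. IRF5 and IRF3 were not told apart, with a difference of 0.02 and an interval of -0.36 to 0.41. These intervals combine the standard errors of 2 genes as if they were independent.

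Per length of transcript, the order of the family differed between the groups. Levels between genes are given here as CPM per kilobase, with lengths from GENCODE 29 transcripts matched by RefSeq identifier. After BAY1217389, IRF7 stood at 60.3 ± 0.955, IRF9 at 49.0 ± 0.725, IRF3 at 48.7 ± 3.92, IRF2 at 21.7 ± 0.0175, IRF1 at 15.1 ± 0.130 and IRF5 at 1.63 ± 0.134 CPM per kilobase (SD, n = 2). In DMSO, IRF3 stood at 46.6 ± 0.952, IRF9 at 25.0 ± 0.379, IRF2 at 13.0 ± 0.0677, IRF7 at 12.2 ± 0.925, IRF1 at 5.44 ± 0.127 and IRF5 at 1.53 ± 0.00104 CPM per kilobase (SD, n = 2). IRF9 and IRF3 after BAY1217389, and IRF2 and IRF7 in DMSO, did not differ beyond their spread.

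IRF7 took 30.97 and 30.42% of the summed per-length level of the 6 genes in the BAY1217389 libraries, against 11.27 and 12.32% in the DMSO libraries. The share of IRF3 was 23.88 and 25.70% after BAY1217389, against 44.62 and 45.12% in DMSO. IRF9 kept a nearly level share, 25.19 and 24.70% after BAY1217389 against 24.58 and 23.64% in DMSO. Among genes with a known length, IRF7 stood at percentiles 92.0 and 92.1 of per-length level in the BAY1217389 libraries, against 63.5 and 66.1 in the DMSO libraries. The place of IRF3 depends on its length, since the shortest matched transcript puts it at 89.4 CPM per kilobase after BAY1217389, above IRF7 at 64.8, whereas the longest puts it at 36.5, below IRF9 at 49.0. In DMSO, IRF3 was highest under each of these lengths.

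**Figure D3:**
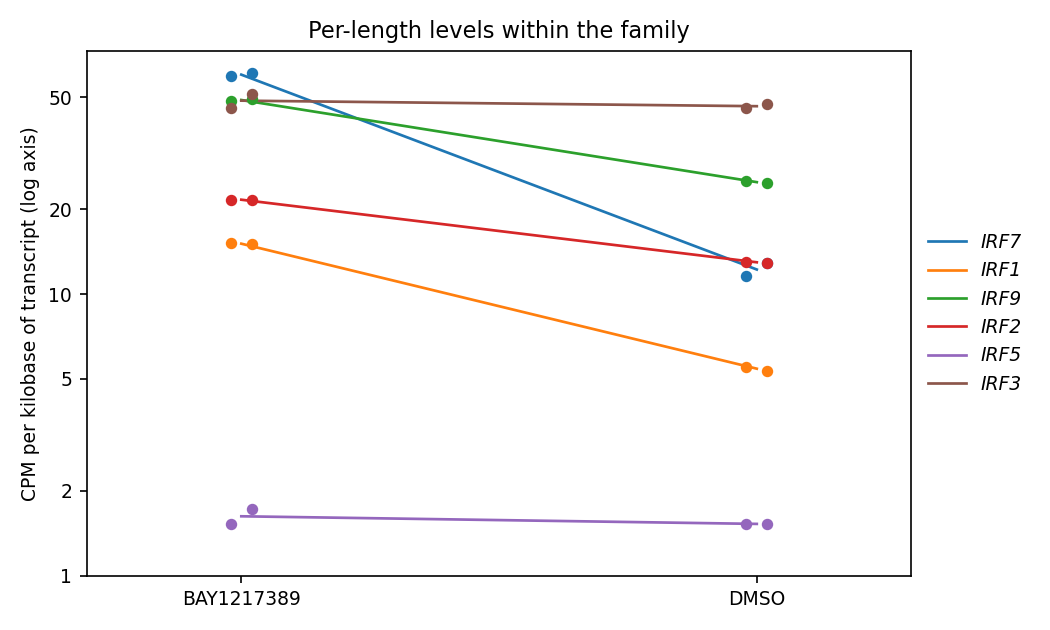
CPM per kilobase of transcript (log axis) for the 6 genes after BAY1217389 (left) and in DMSO (right), with a point for each library and lines joining group means. IRF7 lies above IRF3 on the BAY1217389 side, at 60.3 against 48.7, and below it on the DMSO side, at 12.2 against 46.6, where 1 IRF7 point lies behind an IRF2 point.

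Other family members were scarce. IRF4, a lymphoid factor, had 4 and 5 reads after BAY1217389 and 0 in both DMSO libraries. IRF8, a myeloid and B cell factor, had 6 and 0 reads after BAY1217389 and 0 in both DMSO libraries. IRF4 and IRF8 were too scarce to be tested, and a count of 0 allows up to 0.0762 and 0.0767 CPM in the DMSO libraries, for counting error only.

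Genes that flank the family were looked at for change over a whole locus. Of 12 nearest neighbours in RefSeq, 8 could be tested, of which 3 rose, 1 fell and 4 did not pass. Over all genes tested, 14.5% rose and 13.3% fell. Beside IRF9, RNF31, a subunit of the linear ubiquitin ligase, had 52.0 and 55.3 CPM after BAY1217389, against 42.6 and 40.2 CPM in DMSO (log2 fold change 0.37, edgeR adjusted p = 1.22e-06). REC8, a meiotic cohesin gene on the other side of IRF9, had 4.41 and 4.89 CPM after BAY1217389, against 2.64 and 2.43 CPM in DMSO (log2 fold change 0.87, edgeR adjusted p = 3.35e-04). Beside IRF7, neither PHRF1 (log2 fold change -0.11, edgeR adjusted p = 0.180) nor CDHR5 (0.99 on at most 30 reads in a library, edgeR adjusted p = 0.201) passed. TNPO3 beside IRF5 (-0.04) and SCAF1 beside IRF3 (-0.08) did not pass either. The third gene that rose was IRF1-AS1 and the one that fell was BCL2L12.

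Upstream of IRF3, IRF5 and IRF7, some sensors and adaptors rose, others fell or did not pass, and the central kinase TBK1 did not pass. Of 20 tested genes of 21 listed, 9 rose, 2 fell and 9 missed the threshold (median log2 fold change 0.12), where 27.8% of all genes were called. RIGI, a cytosolic sensor of RNA listed in the files as DDX58, had 429 and 415 CPM after BAY1217389, against 48.1 and 47.7 CPM in DMSO (log2 fold change 3.14). IFIH1, the related sensor MDA5, had 166 and 160 CPM after BAY1217389, against 20.5 and 19.1 CPM in DMSO (3.04). TLR3, an endosomal RNA sensor, had a log2 fold change of 2.19. MYD88, the adaptor through which endosomal receptors other than TLR3 reach IRF5 and IRF7, had a log2 fold change of 1.61. CGAS, the DNA sensor upstream of STING, named after its values were seen, rose by 0.28 on the log2 scale (edgeR adjusted p = 0.0107). Its call was lost with DESeq2 (adjusted p = 0.0798), without BAY1217389 replicate 1 (0.187) and without DMSO replicate 1 (0.142). STING1 had 28.7 and 30.2 CPM after BAY1217389, against 15.1 and 14.2 CPM in DMSO (1.01).

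Of the 2 kinases that phosphorylate IRF3 and IRF7, TBK1 had 76.1 and 75.7 CPM after BAY1217389, against 69.4 and 71.7 CPM in DMSO. Its change came to 0.11 on the log2 scale (SE 0.04, edgeR adjusted p = 0.0719), and it passed when the filter was raised to 5 CPM in 2 libraries (adjusted p = 0.0239). IKBKE, which encodes IKKε, had 11.0 and 9.89 CPM after BAY1217389, against 6.09 and 5.80 CPM in DMSO, and rose by 0.81 on the log2 scale (edgeR adjusted p = 1.59e-06). The genes that fell were MAVS, the adaptor of the RNA sensors, with 116 and 121 CPM after BAY1217389 against 148 and 140 CPM in DMSO (-0.28), and the kinase gene IRAK1 (-0.11). The IRAK1 call was lost without BAY1217389 replicate 1 (adjusted p = 0.291), without DMSO replicate 2 (0.209), without the low-count filter (0.0691) and with DESeq2 (0.0708).

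Among partners of IRF9 in ISGF3 and the receptors and kinases upstream of it, most genes rose. Of the 8 genes listed, 6 rose, none fell and 2 missed the threshold (median log2 fold change 0.21). The share of all genes tested that rose was 14.5%. STAT2, a subunit of ISGF3, had 287 and 295 CPM after BAY1217389, against 84.8 and 77.0 CPM in DMSO, a log2 fold change of 1.85 (SE 0.04). The kinase gene JAK1 rose by 0.17, the receptor genes IFNAR2 by 0.24 and IL10RB by 0.19, and IFNLR1, the specific chain of the type III interferon receptor, by 0.70. The kinase gene TYK2 (-0.06) and the receptor gene IFNAR1 (0.05) did not pass. Calls were lost for IFNAR2 without DMSO replicate 2 (edgeR adjusted p = 0.0515), for IFNLR1 without BAY1217389 replicate 2 (0.101) and for IL10RB without BAY1217389 replicate 2 (0.0630), without DMSO replicate 2 (0.0743) and with DESeq2 (0.0541).

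Cofactors of the IRF proteins moved both ways. Of 10 tested genes of 13 listed, 5 rose, 2 fell and 3 missed the threshold (median log2 fold change 0.20). For comparison, 14.5% of all genes tested rose and 13.3% fell. BATF2, a partner of IRF1 described in mouse macrophages, had 76.5 and 79.7 CPM after BAY1217389, against 8.30 and 9.22 CPM in DMSO (log2 fold change 3.16). IFI35 (2.43) and its binding partner NMI (1.48) rose, as did EP300, a histone acetyltransferase that IRF3 recruits (0.21). The corepressor genes IRF2BP1 (-0.21) and IRF2BP2 (-0.16), named for binding IRF2, fell, and IRF2BPL (0.07) did not pass. IRF2BP1 had 48.9 and 49.5 CPM after BAY1217389, against 54.5 and 59.4 CPM in DMSO, and without DMSO replicate 2 it no longer passed (edgeR adjusted p = 0.0999).

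Among 13 genes described to limit IRF proteins, 4 rose, 2 fell and 7 missed the threshold (median log2 fold change -0.01). Of all genes tested, 14.5% rose and 13.3% fell. TRIM21, a ubiquitin ligase described to act on several IRF proteins, had 53.0 and 55.8 CPM after BAY1217389, against 9.73 and 8.38 CPM in DMSO (log2 fold change 2.59). TRIM26, a ligase described for nuclear IRF3, rose by 0.76 and MDM2, better known as the ligase of p53, by 0.20. TRIM28, which sumoylates IRF7, fell by 0.15 and EIF4EBP1, a translation repressor whose mouse counterpart restrains Irf7 translation, by 0.21 on the log2 scale. STUB1 and EIF4EBP2, named after their values were seen, missed the threshold, but STUB1 passed as lower without DMSO replicate 1 (-0.30, edgeR adjusted p = 2.48e-05) and EIF4EBP2 without BAY1217389 replicate 1 (-0.16, 0.0256).

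Genes described as targets of the family were higher almost throughout. These lists were chosen with earlier results of these libraries known, so their direction is not independent evidence. The share higher over all genes tested was 14.5%. Of 23 tested IRF1 or IRF2 targets of 25 listed, 21 rose, none fell and 2 missed the threshold (median log2 fold change 1.51). Those 2, named after their values were seen, were CIITA (0.83) and IL15 (0.28), and CIITA passed without DMSO replicate 2 (2.04, edgeR adjusted p = 0.0300). Of the 21, the adhesion gene VCAM1 (1.43), also named after its values were seen, no longer passed with DESeq2 (adjusted p = 0.105), without the low-count filter (0.0513), without either BAY1217389 library (0.0578 and 0.299) or without DMSO replicate 2 (0.206). SOCS1 (2.36), a feedback inhibitor gene named in the same way, no longer passed without BAY1217389 replicate 1 (edgeR adjusted p = 0.129), which left 19 genes higher. The genes that rose included the peptide transporter gene TAP1 (2.20), the MHC class I light chain gene B2M (1.52), the MHC class I activator gene NLRC5 (2.28) and the GTPase gene GBP1 (3.97). All 14 listed targets of IRF3 or IRF7 rose, with a median of 3.85, or 3.78 with genes at 0 in DMSO set to their lower bounds. The IFNL genes in this list are near-identical copies, so the split of reads among them is uncertain. The smallest p-values in it belonged to IFIT1 (3.99), IFIT2 (3.38), IFIT3 (3.71) and ISG15 (2.86). IFNB1, the interferon beta gene, had 26 and 22 reads after BAY1217389 and 0 in both DMSO libraries, at least 14.5-fold higher when the limit of 3 reads over the DMSO group stands in for 0. CXCL10, an interferon-induced chemokine gene, had 72 and 66 reads after BAY1217389 and 0 in both DMSO libraries, at least 41.8-fold higher by the same limit.

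All 17 listed ISGF3 targets, which include STAT2, rose as well, with a median of 2.97, where 14.5% of all genes tested rose. MX1 (4.03), IFI6 (2.97), OAS2 (3.92) and OAS3 (2.71) had the smallest p-values. The cytokine genes described as IRF5 targets in myeloid cells were mostly too scarce to test. Of 8 listed, 3 were tested and only IL6 rose, with 22.8 and 21.4 CPM after BAY1217389 against 5.59 and 5.31 CPM in DMSO (log2 fold change 2.02). IL1B (log2 fold change 0.35) and IL23A (1.06) did not pass, and TNF, IL12A, IL12B, CCL3 and CCL4 had at most 12 reads in any library.

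**Figure D4:**
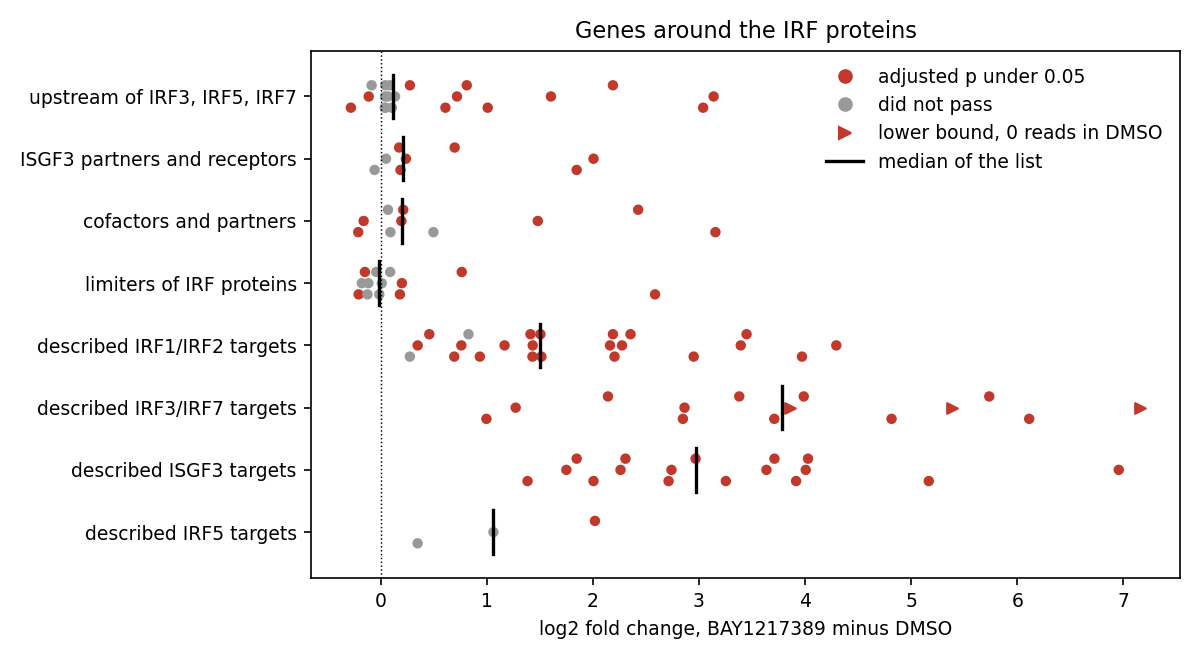
Log2 fold change, BAY1217389 minus DMSO, of each tested gene in 8 lists around the IRF proteins, red where the edgeR adjusted p was under 0.05, with a bar at the median of each list. Triangles are lower bounds for IFNB1, CXCL10 and IFNL2, which had 0 reads in DMSO. The lists of described targets have medians between 1.06 and 3.78, and the lists of regulators between -0.01 and 0.21. The lowest target median, 1.06, is that of 3 tested IRF5 targets, of which only IL6 passed. All lists were chosen with earlier results of these libraries known, so the contrast between them is not independent evidence.

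The genes whose centred log2 CPM followed each IRF gene most closely over the 4 libraries were found among 10741 genes. The measure of likeness was the root mean square difference on the log2 scale, where smaller is closer. IFI27 (0.0223), PLSCR1 (0.0360) and PNPT1 (0.0602), all interferon-stimulated, were closest to IRF7. IFI27 had 642 and 663 CPM after BAY1217389, against 127 and 136 CPM in DMSO. B2M (0.0255), the immunoproteasome gene PSMB8 (0.0282) and SLFN5 (0.0283) were closest to IRF1. PSME2 (0.0189), which encodes a proteasome activator subunit and lies beyond RNF31 from IRF9, was closest to IRF9, before the AP-1 gene JUN (0.0208).

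IRF2 was closest to LCN2 (0.0122), a siderophore-binding protein gene, to the growth factor gene HBEGF (0.0141) and to SOD2 (0.0157), the mitochondrial superoxide dismutase gene. IRF3 lay closest to MOB2 (0.0056), TTC5 (0.00789) and ZBTB18 (0.00939), and IRF5 to HIP1 (0.0108), DENND1A (0.0118) and the histone gene H2AW (0.0122). None of those 6 genes passed the test. With 4 libraries in 2 groups, this likeness mostly reflects equal fold changes.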

How the data were processed

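Gene expression was measured by RNA sequencing in 4 libraries of the H1944 line, 2 exposed to BAY1217389 and 2 to DMSO, grouped by the treatment label. The authors deposited raw read counts per gene, and build hg18 is named per the submitters' processing notes. The aligner, counter and strand setting were not given in the sources used here. A further 4 count columns of other samples matched no label and were not used. Library totals were 38904473 to 43661342 reads, and intervals and limits for 0 counts (3 reads) cover counting error only.

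All rows were fitted together with edgeR 4.0.16 (R 4.3.3) by robust quasi-likelihood with TMM scaling, keeping 16738 genes by its expression filter (minimum count 10, minimum total 15). Tests were two-sided, with Benjamini-Hochberg adjustment over all genes tested and a threshold of 0.05. Standard errors were derived from the F statistic, and 95% intervals use the moderated degrees of freedom. The fit was tested on simulated data. Transcript lengths were means over GENCODE 29 transcripts matched by RefSeq identifier, known for 87.8% of tested genes. Promoters came from RefSeq, GRCh38.p14, used for sequence only, and held 3 of the 6 genes. RIGI was matched by RefSeq identifier to an older symbol.

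The members and gene lists were chosen with earlier results of these data known. Named were all family members, all genes of lists of 8 or fewer, the 4 genes with the smallest p-values of longer lists and those called against the majority, some regulators and targets fixed by name, the nearest neighbours, and the 3 genes of at least 5 CPM most like each member; a few genes under this rule are not reported here. Alternatives were DESeq2 1.42.0, limma-voom 3.58.1, other scalings and filters, thinned depth, each library left out and a replicate block. Transcript length was an alternative chosen after seeing the data.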

Additional observations from a re-analysis of the deposited data

How the results depend on the processing

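The same 4 IRF genes, IRF1, IRF2, IRF7 and IRF9, passed the test under all 12 alternative settings, among them DESeq2, limma-voom, other scalings and filters, and each library left out. With 2 libraries a group, the edgeR fit borrows its spread from all genes, and a library left out leaves a lone sample that is assumed to vary like the other group. IRF3 reversed without BAY1217389 replicate 2, to -0.0157, and ranged to 0.142 without BAY1217389 replicate 1. DESeq2 called 3020 genes in all, 1620 higher and 1400 lower, against 4660 in edgeR, and the cause was not tested. Leaving out 1 library gave 3439 to 3816 called genes. With a replicate block 4792 genes were called, and IRF7 stood at 2.30, IRF1 at 1.48, IRF9 at 0.97 and IRF2 at 0.74 on the log2 scale. Under the block 4 genes described to limit IRF proteins were lower, against 2 without it, the added ones being STUB1 (-0.17, edgeR adjusted p = 0.00832) and EIF4EBP2 (-0.12, 0.0376). The shared replicate numbers name no batch, and deviations of same-numbered libraries correlated at 0.0677 over 11128 genes. IRF5 could not be fitted under the filter of 5 CPM in 2 libraries, and its depth limits what could be seen.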
